A study of Mus musculus with 6 samples.

Results

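Semaphorins, plexins and neuropilins were followed in mouse corticothalamic projection neurons, the deep-layer cortical neurons whose axons innervate the thalamus, at 3 stages around birth. The members were the genes whose symbol begins with Sema and a digit or with Plxn, together with Nrp1 and Nrp2, each read from the probe set with the highest mean over 6 arrays. There were 32 of them among 18193 genes: 20 semaphorins (the ligands), 11 receptors (9 plexins and 2 neuropilins) and Plxna4os1, a long non-coding RNA gene on the strand opposite Plxna4, which is neither. A gene was tested if its mean was among the upper 75% of all genes, which kept 29 members, 18 ligands and all 11 receptors. Sema3d (log2 values of 4.68 to 5.66), Sema3g (4.87 to 5.40) and Plxna4os1 (at most 4.599) were too dim to test.

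All 6 Affymetrix arrays came from C57BL/6 wild-type mice, with 2 arrays at each of E18, P3 and P6. Green fluorescent microspheres had been placed in the thalamus at E17.5, P1 and P4, from where axons carry them back to the cell body, and labelled cells were sorted from cortex collected at E18.5, P3 and P6. Cells were thus collected 1 day after injection at E18 and 2 days after it at P3 and P6, so labelling time and stage cannot be told apart in comparisons with E18. The labels name no animal, litter or sort for any array, so a p-value measures only the spread between these arrays, which may be technical.

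Semaphorins are guidance proteins that turn growing axons away or draw them on, and they also act in neuronal migration, dendrite growth and synapse formation. Class 3 members are secreted, classes 4, 5 and 6 span the membrane, and class 7 is anchored to it by a lipid. Plexins are the signalling receptors. Most class 3 proteins reach plexins through neuropilins, which bind the ligand but signal little by themselves, while the membrane-bound classes mostly bind plexins directly. In developing cortex, these proteins are known for steering corticofugal and callosal axons and for placing migrating neurons.

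The arrays of a stage were unequally alike, and the cell content differed between stages. Pearson's correlation between the arrays of a stage was 0.998 for E18, 0.961 for P3 and 0.976 for P6 over the probe sets, which share most of their signal. The members' median difference between arrays was 0.055 log2 units for E18, 0.49 for P3 and 0.40 for P6. All 8 corticothalamic markers were called higher at P3 and at P6 (list means of 8.23 and 8.30 at E18 against 9.91 to 10.67 later). All 5 tested markers of dividing cells were called lower at both stages, with means of 12.38 and 12.44 at E18 against 6.15 to 6.47 later, and 5 of 7 markers of radial glia and progenitors were called lower, with means of 10.42 and 10.41 against 6.49 to 6.72. Astrocyte markers averaged 10.01 and 10.03 at E18 and 6.63 to 8.13 later, and microglial markers 9.17 on both E18 arrays and 6.52 to 8.74 later. The oligodendrocyte lineage averaged 7.61 on both E18 arrays and 6.56 to 7.19 later. Interneurons averaged 6.99 and 7.06 against 5.47 to 5.88, and vascular cells 6.57 and 6.51 against 5.92 to 6.05. Some tested markers of these other cell types were not called lower at either stage. They were Pax6 and Nes (progenitors), Gfap and Aqp4 (astrocytes), Sox10 and Mbp (oligodendrocyte lineage), Gad1 and Gad2 (interneurons) and Flt1 (vascular cells). No microglial marker was called lower at P6. Markers of dividing cells and progenitors, which postmitotic neurons lack, were thus high in the E18 samples, against their label of purified projection neurons. In such bulk RNA, fewer cells of a type and less RNA per cell cannot be told apart, and the part of these cells in each comparison with E18 below was not tested.

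**Figure D1:**
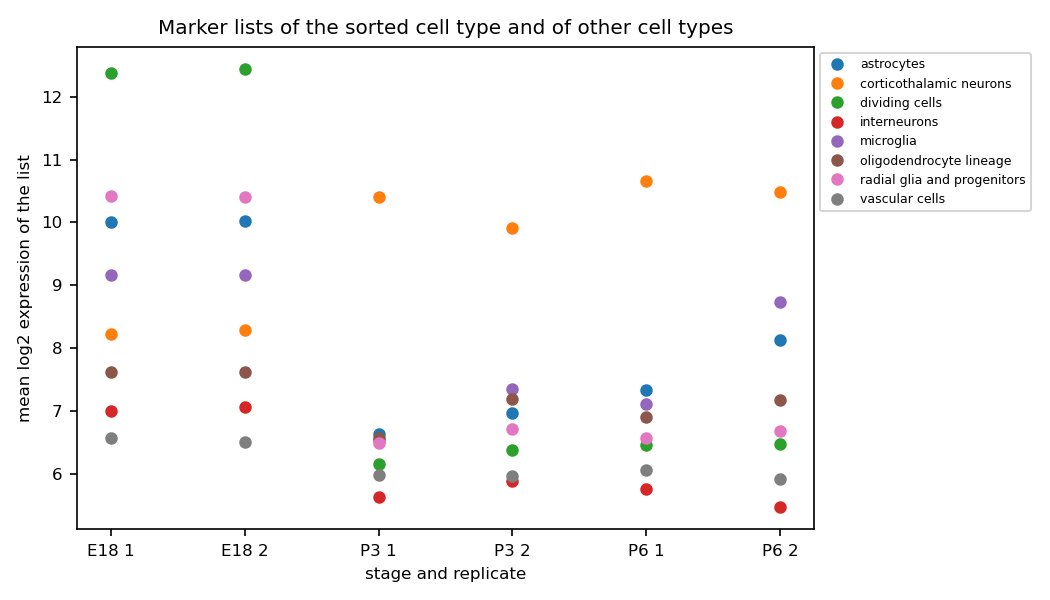
Mean log2 value of each cell type marker list (vertical axis) on each of the 6 arrays (horizontal axis, by stage and replicate). The corticothalamic list rises from 8.23 and 8.30 at E18 to between 9.91 and 10.67, while the list of dividing cells drops from above 12 to below 6.5, and the microglial list separates the P6 arrays (7.11 and 8.74).

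Upstream sequence of 6 members is shown because the arrays read RNA driven from such starts. A window is the 250 bases before an annotated start. Among members with a window here, these are the ones called against E18 whose window lies wholly outside the gene's annotated span. The windows come from RefSeq (GRCm38.p6) and were taken for 26 of the 32 members, 10 of them outside the span. The members left without one include Sema3f and Sema6a, both called against E18. A window missing here need not be missing from RefSeq, and the member shares below leave these genes out. Sema3e (chr5:14025026-14025275, plus strand), Sema4f (chr6:82939770-82940019, minus strand), Sema4a (chr3:88461183-88461432, minus strand) and Sema6b (chr17:56140344-56140593, minus strand) rose, and Sema5a (chr15:32244563-32244812, plus strand) and Sema3c (chr5:17574566-17574815, plus strand) fell. Each is written 5′ to 3′ on the gene's strand, with capitals for motif matches on either strand, which may overlap one another: the GC box is GGGCGG, the CCAAT box is those letters, the TATA box is TATAAA, and the E boxes searched were CAGCTG and, separately, CATCTG.
Sema3e: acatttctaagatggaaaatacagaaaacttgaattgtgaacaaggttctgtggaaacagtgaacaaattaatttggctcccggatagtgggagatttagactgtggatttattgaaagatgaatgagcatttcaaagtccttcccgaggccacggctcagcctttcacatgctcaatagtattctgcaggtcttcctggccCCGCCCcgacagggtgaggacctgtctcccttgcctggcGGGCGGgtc
Sema4f: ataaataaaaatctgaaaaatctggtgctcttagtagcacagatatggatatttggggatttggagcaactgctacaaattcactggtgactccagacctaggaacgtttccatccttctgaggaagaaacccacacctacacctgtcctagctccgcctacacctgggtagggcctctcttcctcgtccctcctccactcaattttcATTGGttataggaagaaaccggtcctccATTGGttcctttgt
Sema4a: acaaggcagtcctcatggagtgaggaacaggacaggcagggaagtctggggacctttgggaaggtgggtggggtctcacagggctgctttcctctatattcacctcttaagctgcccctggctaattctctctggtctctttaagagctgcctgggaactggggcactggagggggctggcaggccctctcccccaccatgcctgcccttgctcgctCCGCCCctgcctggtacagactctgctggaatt
Sema6b: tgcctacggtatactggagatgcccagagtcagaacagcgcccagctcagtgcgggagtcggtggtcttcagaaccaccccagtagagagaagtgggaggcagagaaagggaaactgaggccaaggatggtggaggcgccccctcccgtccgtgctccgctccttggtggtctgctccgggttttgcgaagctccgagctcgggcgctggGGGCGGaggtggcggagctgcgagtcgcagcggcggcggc
Sema5a: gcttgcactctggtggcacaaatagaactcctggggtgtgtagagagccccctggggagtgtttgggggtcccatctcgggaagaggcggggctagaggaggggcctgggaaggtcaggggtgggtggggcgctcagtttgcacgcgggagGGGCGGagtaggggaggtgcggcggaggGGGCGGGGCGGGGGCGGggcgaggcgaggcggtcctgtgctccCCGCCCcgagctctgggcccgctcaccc
Sema3c: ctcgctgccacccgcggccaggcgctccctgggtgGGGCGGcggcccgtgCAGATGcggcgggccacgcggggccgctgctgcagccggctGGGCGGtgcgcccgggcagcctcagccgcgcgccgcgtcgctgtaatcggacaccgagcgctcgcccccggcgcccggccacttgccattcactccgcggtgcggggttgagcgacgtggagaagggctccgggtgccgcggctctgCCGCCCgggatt
Sema5a held 5 GC boxes, Sema3c 3, Sema3e 2, and Sema4a and Sema6b 1 each, while Sema4f held none and 2 CCAAT boxes. A GC box lay in 20 of the 26 member windows, against 32.7% of all 32851 windows of the same length. Only 10 of the 26 member windows lay outside the gene's span, and the others lay partly or wholly within it. Each member gave 1 window, that of the farthest upstream among its starts with a window here. All windows were counted without such a choice. The shares are therefore not from windows chosen alike. A CCAAT box lay in 4 of 26 (33.8% of all windows), a TATA box in 0 of 26 (12.4%), CAGCTG in 5 of 26 (13.0%) and CATCTG in 1 of 26 (14.4%). The member windows were richer in G and C, with a median of 64.6% against 52.4% over all windows. A GC-rich window holds GC boxes more readily, and a match describes letters only.

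Between E18 and P3, 4 ligands were called higher, 3 ligands and 3 receptors were called lower, and no receptor was called higher. Sema4f, Sema7a, Sema3e and Sema3f rose between 2.19-fold and 3.58-fold. Sema5b fell 15.5-fold, the receptor Plxnb2 7.11-fold and Sema5a 5.96-fold, and Sema6d, Plxnc1 and Plxnb1 fell between 2.12-fold and 2.89-fold. The 10 called members were 34.5% of the 29, near the 41.3% called among all 13645 genes tested (15.5% higher, 25.7% lower). Calls here and below are at an adjusted p below 0.05 in limma, a linear model fitted to all genes with Benjamini-Hochberg adjustment, and changes are log2 differences of stage means with their standard error (SE, n = 2 arrays a stage). Counts depend on the scaling: after quantile normalization of the arrays, 10 members were called higher and 5 lower, beside 5665 of 13645 genes, of which 50.8% were higher (37.6% before), and the median change of all genes moved from -0.13 to 0.094.

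Between E18 and P6, 14 members (48.3%) were called, against 31.7% of all genes. Higher were 7 ligands (Sema4f, Sema3e, Sema4a, Sema7a, Sema6a, Sema4g and Sema6b) and the receptors Nrp1 and Plxna2, which together were 9 members against 14.8% of all genes. Lower were Sema5b, Sema3c and the receptors Plxnb2, Plxnc1 and Plxnb1, 5 members against 16.9% of all genes. The comparisons share the E18 arrays. Called at both stages, in the same direction each time, were 7 members: Sema3e, Sema4f and Sema7a higher, and Sema5b, Plxnb1, Plxnb2 and Plxnc1 lower. The share of all genes called at both stages was not counted. Arrays of E18 and P3 did not overlap for 11 members higher and 9 lower, beside 36.4% and 44.2% of all genes (80.6% together). Arrays of E18 and P6 did not overlap for 15 higher and 9 lower, beside 43.4% and 37.4% (80.8% together), so a lack of overlap with E18 was common among all genes. With the closely alike E18 arrays averaged into 1 sample, 6 members were called in each comparison, beside 2452 of 13645 genes at P3 and 2366 at P6. The hybridization controls, transcripts added to each array, ranged from 9.25 to 13.01. Their level went partly with stage, being higher on the P3 arrays (11.72, 11.59) than on the E18 arrays (9.59, 9.25). Its slope as a covariate rests on differences within stages, and only the P6 arrays lay far apart (13.01, 9.85). A lost call or smaller change under this covariate, here or below, therefore cannot separate control level from stage. With this covariate, Plxnb1, Plxnc1, Sema3f, Sema4f and Sema5a lost their call at P3. At P6, Plxna2, Plxnb1, Plxnb2, Plxnc1, Sema3c and Sema6b lost theirs.

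**Figure D2:**
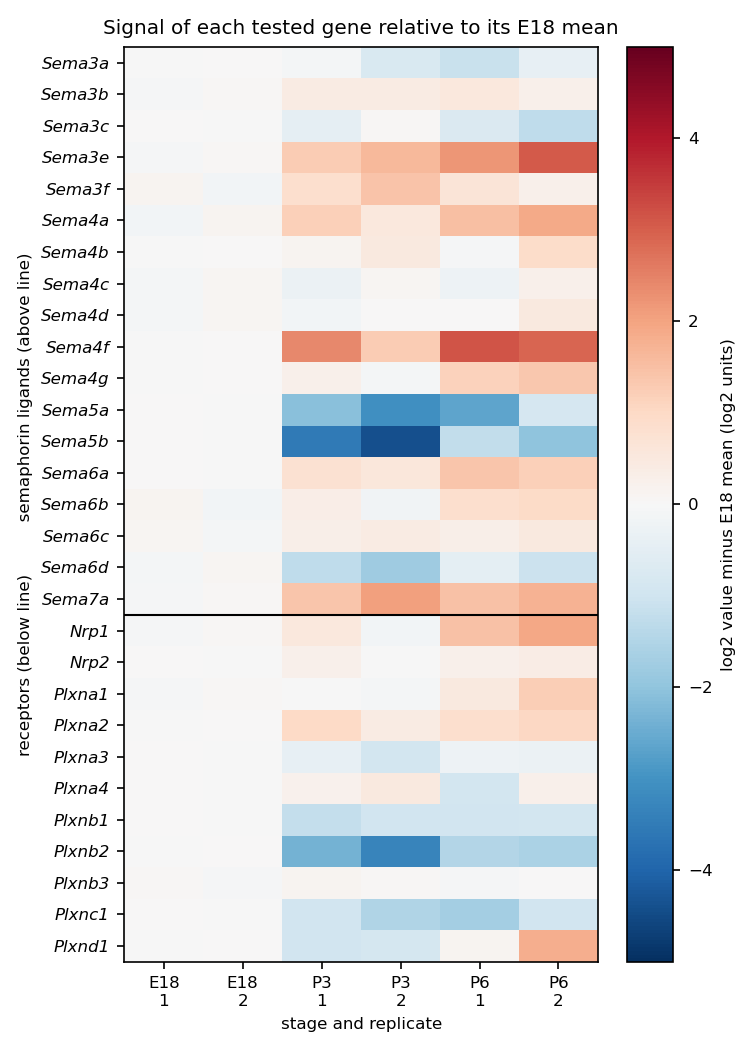
Log2 value of each tested member on each array minus the member's E18 mean (colour scale, log2 units), with 18 ligands above the line and 11 receptors below it. Sema4f, Sema3e and Sema7a are above their E18 level on all 4 later arrays, and Sema5b, Sema5a, Plxnb2, Plxnb1 and Plxnc1 are below it.

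Of the secreted class 3 semaphorins, 5 of 7 were tested. Sema3e, a repellent or attractant of axons that binds Plxnd1, measured 6.12 and 6.21 on the E18 arrays, 7.42 and 7.79 on the P3 arrays and 8.36 and 9.23 on the P6 arrays. All later arrays lay above the E18 arrays, and the P6 arrays above the P3 arrays. It rose by 1.44 ± 0.31 at P3 (limma adjusted p = 0.0101) and by 2.63 ± 0.31 at P6, 6.19-fold (limma adjusted p = 0.000694). The P3 call was lost without E18 replicate 1 (1.397) and without P3 replicate 2 (1.25), while the P6 call held under every alternative tried. With all its probe sets averaged, the P6 rise was 1.20. From P3 to P6 its other probe sets above the filter changed by -0.32 and 0.13, against 1.19 for the one used. The step between these stages thus rests on 1 probe set (0.21 with all of them averaged, not called).

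Sema3f, a repellent that acts through Nrp2, had log2 values of 10.36 and 10.11 for E18, 11.09 and 11.64 for P3 and 10.89 and 10.50 for P6. The P3 arrays were the highest of the 6. It rose by 1.13 ± 0.28 at P3 (limma adjusted p = 0.0183) and stood 0.46 ± 0.28 above E18 at P6, which was not called (adjusted p = 0.251). The P3 call was lost without E18 replicate 1 (1.26) and without E18 replicate 2 (1.003). Its chosen probe set is of a type that can cross-hybridize, and its other probe sets above the filter changed by -0.054 and -0.14 at P3, so the rise rests on 1 probe set (0.31 with all of them averaged, not called).

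Sema3c, a class 3 ligand for both neuropilins, measured 9.36 and 9.34 on the E18 arrays, 8.91 and 9.40 on the P3 arrays and 8.63 and 8.06 on the P6 arrays. The P6 arrays lay below the other 4. It changed by -1.004 ± 0.30 at P6 (2.01-fold lower, limma adjusted p = 0.0376). This call was lost without either E18 array (-0.99 and -1.01) and without P6 replicate 2 (-0.72). It was also lost after quantile normalization and with the replicate number as a block.

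Sema3a, the archetypal repellent that binds Nrp1, had log2 values of 8.83 and 8.85 for E18, 8.75 and 8.07 for P3 and 7.71 and 8.44 for P6. The later arrays lay below E18, but neither difference was called (-0.43 ± 0.34, limma adjusted p = 0.318, and -0.76 ± 0.34, adjusted p = 0.126). Sema3b, another secreted ligand, measured 6.70 and 6.78 on the E18 arrays, 7.14 and 7.16 on the P3 arrays and 7.26 and 6.97 on the P6 arrays. Its differences of 0.41 ± 0.19 and 0.38 ± 0.19 were not called either (adjusted p = 0.107 and 0.160).

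All 6 class 4 semaphorins were tested; 1 rose at P3, 3 rose at P6 and none fell. Sema4f, a transmembrane ligand found at synapses, had log2 values of 8.32 and 8.37 for E18, 10.75 and 9.62 for P3 and 11.48 and 11.24 for P6. The stages did not overlap. It rose by 1.84 ± 0.38 at P3 (3.58-fold, limma adjusted p = 0.00837) and by 3.01 ± 0.38 at P6 (8.07-fold, limma adjusted p = 0.000938). Its chosen probe set can cross-hybridize, but the other one moved the same way, from a mean of 7.69 at E18 to 8.43 and 9.54. The P6 call held under every alternative, and the P3 call was lost only with the hybridization controls as a covariate.

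Sema4a, which binds plexins of the B and D groups, measured 7.51 and 7.80 on the E18 arrays, 8.84 and 8.17 on the P3 arrays and 9.15 and 9.55 on the P6 arrays. The stages again did not overlap. Its difference of 0.85 ± 0.30 at P3 was not called (limma adjusted p = 0.0582), being 1.18 without P3 replicate 2 (called) and 0.51 without P3 replicate 1. Its rise of 1.70 ± 0.30 at P6 was called (adjusted p = 0.00484). The P6 call held under every alternative. Its second probe set had means of 7.80, 8.04 and 9.19.

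Sema4g had log2 values of 9.09 and 9.14 for E18, 9.36 and 9.03 for P3 and 10.27 and 10.48 for P6. E18 and P3 overlapped, and both P6 arrays were higher. It rose by 1.26 ± 0.25 at P6 (2.39-fold, limma adjusted p = 0.00731), a call lost without either E18 array (1.24 and 1.28). Sema4b, Sema4c and Sema4d were not called at either stage, with differences from E18 between -0.11 and 0.43. Sema4d, the ligand of Plxnb1, was flat on its chosen probe set (means of 7.71, 7.66 and 7.97), while another of its probe sets had means of 5.87, 7.06 and 8.21.

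Class 5 semaphorins, transmembrane proteins with thrombospondin repeats that bind plexins of the A group, fell at P3. Sema5b measured 10.31 and 10.26 on the E18 arrays, 6.75 and 5.90 on the P3 arrays and 9.04 and 8.28 on the P6 arrays. The stages did not overlap, with P3 lowest, and the second P3 array lay below the level of 5.97 used as the filter on gene means, so its fall can be understated. It fell by 3.96 ± 0.37 at P3 (15.5-fold, limma adjusted p = 0.00025), a call that held under every alternative, and by 1.62 ± 0.37 at P6 (3.08-fold, adjusted p = 0.0132). The P6 call was lost without P6 replicate 2 (-1.24) and with the 18S signal as a covariate. A second probe set changed by -2.64 at P3 and -1.40 at P6.

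Sema5a had log2 values of 10.54 and 10.50 for E18, 8.43 and 7.46 for P3 and 7.90 and 9.67 for P6. All later arrays lay below E18, and the P6 arrays were 1.77 apart, spanning both P3 arrays. It fell by 2.58 ± 0.57 at P3 (5.96-fold, limma adjusted p = 0.0117), which was not called without P3 replicate 2 (-2.09) or with the hybridization controls as a covariate (-1.37). Its other probe set above the filter changed by -2.32 at P3 and -1.49 at P6. The average of all probe sets also takes in those below the filter. The P3 change of Sema5a was -0.95 with that average and -1.64 with the 18S signal as a covariate, and both were still called. At P6 it stood 1.74 ± 0.57 below E18, not called (adjusted p = 0.0556). The P6 value was -2.62 without P6 replicate 2 (called) and -0.85 without P6 replicate 1, -0.65 with the hybridization controls as a covariate and -0.47 with all probe sets averaged. P6 replicate 2 was also the P6 array with the higher microglial (8.74 against 7.11) and astrocyte (8.13 against 7.33) marker means; their part in the Sema5a value was not tested.

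Among the 4 class 6 semaphorins, which signal in both directions and bind plexins of the A group, Sema6d fell at P3, and Sema6a and Sema6b rose at P6. Sema6a, a ligand of Plxna2 and Plxna4, measured 7.91 and 7.89 on the E18 arrays, 8.68 and 8.46 on the P3 arrays and 9.27 and 9.08 on the P6 arrays. The stages did not overlap. Its difference of 0.67 ± 0.23 at P3 just missed the threshold (limma adjusted p = 0.0502) and was 0.55 and 0.78 without either P3 array. The difference was called after quantile normalization (1.04), with all probe sets averaged (0.76), without the intensity trend and with the stages compared alone. Sema6a was not called at P3 with, among others, E18 averaged, the replicate number as a block or the hybridization controls as a covariate (0.53). It rose by 1.28 ± 0.23 at P6 (2.42-fold, limma adjusted p = 0.00468), a call lost without either E18 array (1.29 and 1.26).

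Sema6b, another class 6 ligand of A plexins, had log2 values of 7.19 and 6.90 for E18, 7.37 and 6.87 for P3 and 7.88 and 7.9996 for P6. E18 and P3 overlapped and P6 was higher. It rose by 0.89 ± 0.24 at P6 (limma adjusted p = 0.0254), a call lost without any 1 of the E18 arrays (1.04 and 0.75) or the P6 arrays (0.95 and 0.84). Sema6d, a ligand of Plxna1, measured 10.05 and 10.23 on the E18 arrays, 8.87 and 8.35 on the P3 arrays and 9.67 and 9.05 on the P6 arrays. All later arrays were lower, with P3 lowest.

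Sema6d fell by 1.53 ± 0.31 at P3 (2.89-fold, limma adjusted p = 0.00834) and stood 0.78 ± 0.31 below E18 at P6, not called (adjusted p = 0.0979). The P3 call was lost without E18 replicate 2 (-1.44). Both other probe sets of the gene above the filter, dimmer ones, changed by 0.42 at P3, and with all probe sets averaged the change was -0.11. Sema6c was high on all arrays (10.53 to 11.12) and was not called.

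Sema7a, the lipid-anchored semaphorin that promotes axon growth through integrins and binds Plxnc1, had log2 values of 7.72 and 7.85 for E18, 9.16 and 9.85 for P3 and 9.25 and 9.53 for P6. Both later stages lay above E18 and overlapped each other. It rose by 1.72 ± 0.30 at P3 (limma adjusted p = 0.00413), a call that held under every alternative, and by 1.60 ± 0.30 at P6 (3.04-fold, adjusted p = 0.00565). The P6 call was lost without E18 replicate 1 (1.54), and with all probe sets averaged the P6 rise was 1.02.

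**Figure D3:**
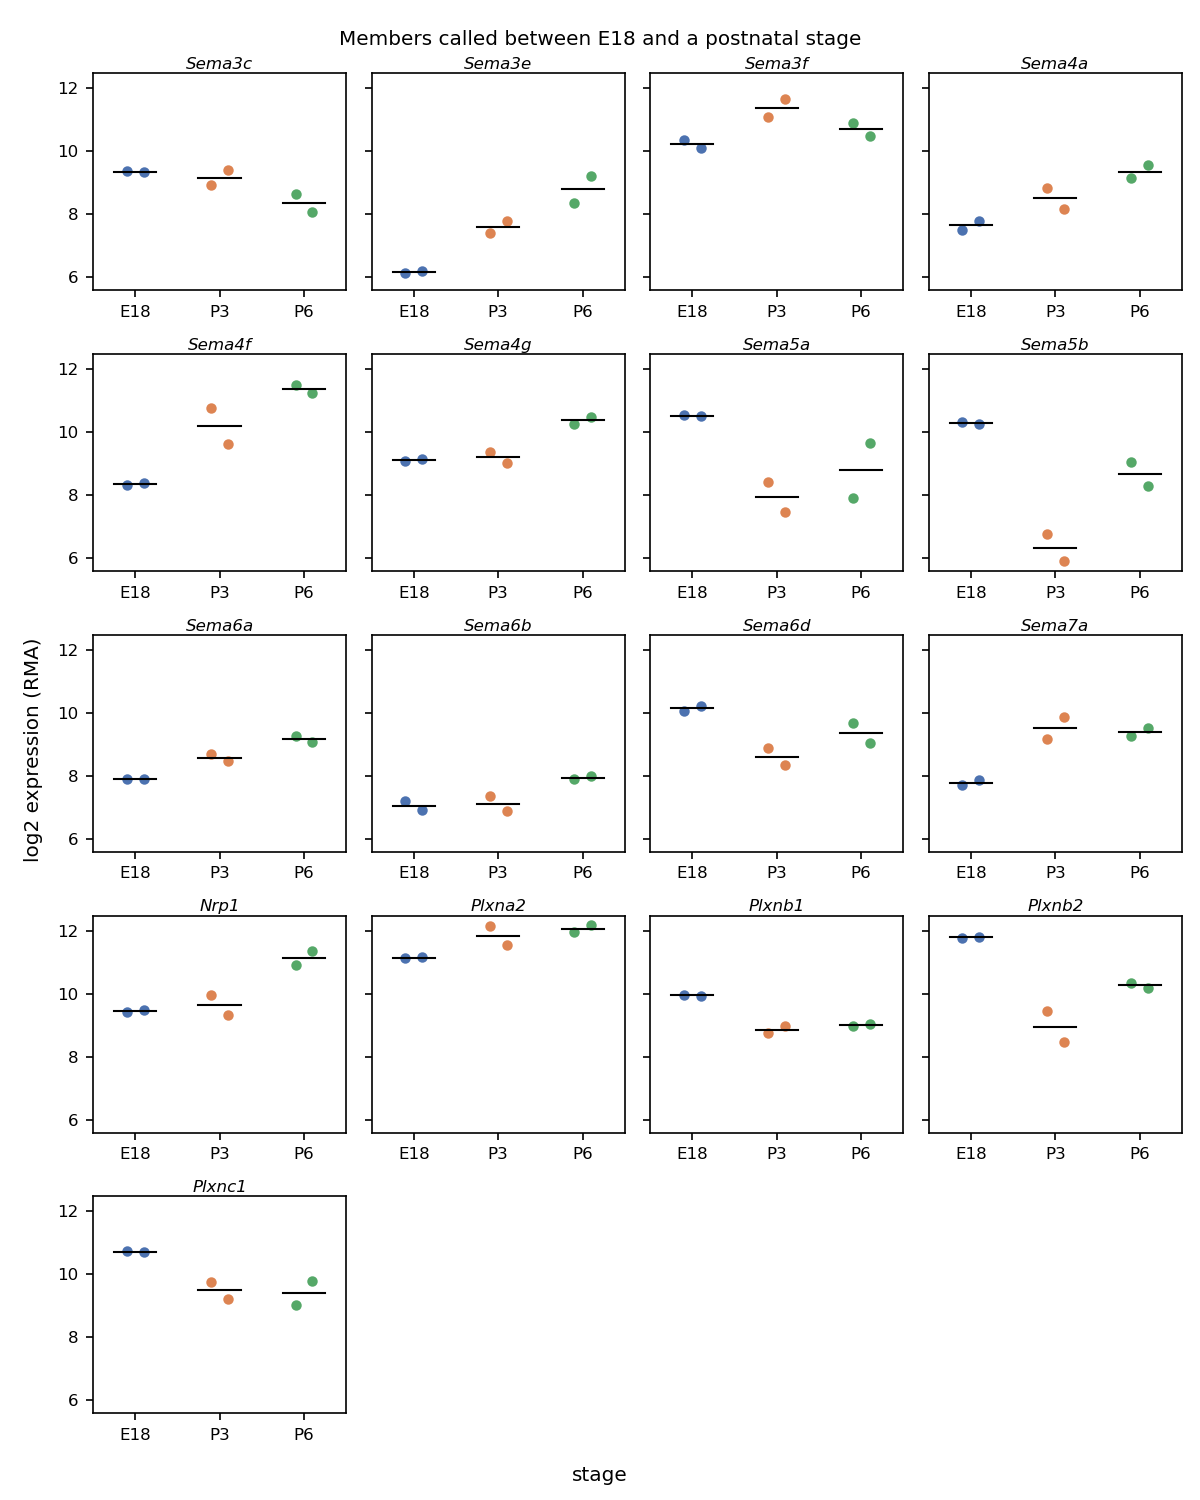
Log2 values on each array (points) and stage means (line) of the 17 members called against E18 at P3 or at P6, with stage on the horizontal axis. On the probe sets used, Sema3e, Sema4f and Sema4a step up at each stage and Sema7a stays at its P3 level. Sema5b drops to 6.75 and 5.90 at P3 before standing at 9.04 and 8.28 at P6.

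The neuropilins, obligate partners of most class 3 ligands, differed from each other. Nrp1 measured 9.40 and 9.48 on the E18 arrays, 9.96 and 9.31 on the P3 arrays and 10.90 and 11.36 on the P6 arrays. On this probe set, E18 and P3 overlapped and the P6 arrays were the highest. Nrp1 rose by 1.69 ± 0.31 at P6 (3.22-fold, limma adjusted p = 0.00512), a call that held under every alternative. At P6 its 3 other probe sets changed by 1.21, 1.61 and 1.30. Those 3 stood above E18 already at P3, by 0.78, 0.74 and 0.81, against 0.19 for the one used. A rise confined to the second interval thus rests on 1 probe set. Nrp1 is also a gene of blood vessels. Of 7 vessel markers, Pecam1, Cdh5 and Tek were below the filter (4.12 to 5.53 on all arrays) and the other 4 passed it, among them Kdr at 7.67 to 8.48 and Flt1 at 7.03 to 7.56. At P6, 3 of these 4 fell (Cldn5, Kdr and Pdgfrb) and none rose. Averaged over all 7, the E18 arrays stood at 6.57 and 6.51, the P3 arrays at 5.97 and 5.96, and the P6 arrays at 6.05 and 5.92; the part of vessel cells in the Nrp1 values was not tested. Nrp2 was at 7.54 and 7.49, 7.77 and 7.49, and 7.79 and 7.88 from E18 to P6, and was not called (0.32 ± 0.20 at P6, limma adjusted p = 0.267).

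Of the 4 A plexins, which signal for class 3 ligands with neuropilins and for class 6 ligands directly, only Plxna2 was called. Plxna2 had log2 values of 11.12 and 11.17 for E18, 12.15 and 11.54 for P3 and 11.96 and 12.16 for P6. All later arrays lay above E18. It stood 0.70 ± 0.25 above E18 at P3, not called (limma adjusted p = 0.0586), and rose by 0.92 ± 0.25 at P6 (1.89-fold, adjusted p = 0.0281). Its 3 other probe sets changed by 0.47, 1.25 and 1.58 at P3. The P3 difference was called after quantile normalization (1.03), with all probe sets averaged (1.001), with the 18S signal as a covariate (0.97) and with array weights. The other alternatives that used all arrays left it not called, among them the hybridization covariate (0.82). The P3 value was 1.01 without P3 replicate 2 (called) and 0.39 without P3 replicate 1. The P6 call was lost without either E18 array (0.90 and 0.94) and without either P6 array (1.02 and 0.82).

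Plxna1 measured 8.81 and 8.90 on the E18 arrays, 8.82 and 8.74 on the P3 arrays and 9.33 and 10.09 on the P6 arrays. Both P6 arrays were higher, but the difference of 0.86 ± 0.30 was not called (limma adjusted p = 0.0678); it was 1.24 without P6 replicate 1 (called) and 0.48 without P6 replicate 2. The Plxna1 difference at P6 was also called after quantile normalization (1.02) and with all probe sets averaged (0.69). The same held with array weights and with the 18S signal (1.08) or the hybridization controls (1.34) as a covariate. The Plxna1 difference was not called with other filters, without the intensity trend, with E18 averaged or with the replicate number as a block. Without either E18 array it was 0.81 and 0.90. Plxna3, a receptor with Nrp2 for Sema3f, had log2 values of 9.80 and 9.78 for E18, 9.38 and 8.88 for P3 and 9.55 and 9.50 for P6. Its difference of -0.66 ± 0.26 at P3 was not called (adjusted p = 0.0781). It was -0.91 without P3 replicate 1 (called), -0.41 without P3 replicate 2 and -0.21 after quantile normalization. Plxna4, a receptor with Nrp1 for Sema3a, ranged from 8.64 to 10.05 and was not called at either stage. Its other probe set had means of 6.68, 7.43 and 7.70 from E18 to P6.

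The B plexins, receptors of class 4 ligands, fell except Plxnb3. Plxnb2 measured 11.77 and 11.79 on the E18 arrays, 9.43 and 8.47 on the P3 arrays and 10.34 and 10.18 on the P6 arrays. The stages did not overlap and P3 was lowest. It fell by 2.83 ± 0.33 at P3 (7.11-fold, limma adjusted p = 0.000807), a call that held under every alternative, and by 1.52 ± 0.33 at P6 (2.87-fold, adjusted p = 0.0118). The P6 call was lost without either E18 array (-1.53 and -1.51) and without either P6 array (-1.60 and -1.45). Plxnb2 is known to be expressed by cortical progenitors, whose marker mean was 10.42 and 10.41 at E18 and 6.49 to 6.72 later; their part in its fall was not tested.

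Plxnb1, the receptor of Sema4d, had log2 values of 9.97 and 9.92 for E18, 8.74 and 8.98 for P3 and 8.98 and 9.04 for P6. Both later stages lay below E18 and overlapped each other. It fell by 1.09 ± 0.23 at P3 (limma adjusted p = 0.0102) and by 0.93 ± 0.23 at P6 (1.91-fold, adjusted p = 0.0201). The P3 call was lost without either E18 array (-1.06 and -1.11) and after quantile normalization (-0.63), and the P6 call without either E18 array (-0.91 and -0.96) or either P6 array (-0.90 and -0.97). Its other probe set fell further, from a mean of 10.62 to 7.20 and 7.96, so that the mean of both changed by -2.25 and -1.80. Plxnb3 stayed between 6.36 and 6.59 on all arrays.

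Plxnc1, the receptor of Sema7a, measured 10.74 and 10.71 on the E18 arrays, 9.77 and 9.22 on the P3 arrays and 9.02 and 9.78 on the P6 arrays. Both later stages lay below E18 and overlapped each other. It fell by 1.23 ± 0.33 at P3 (2.35-fold, limma adjusted p = 0.0232) and by 1.33 ± 0.33 at P6 (2.51-fold, adjusted p = 0.0201). The P3 call was lost without either E18 array (-1.22 and -1.25) and without P3 replicate 2 (-0.96), and the P6 call without either E18 array (-1.32 and -1.34) or P6 replicate 1 (-0.95). With the hybridization controls as a covariate the changes were -0.72 and -0.87 and not called, and with the 18S signal the P3 change was -0.79. Its other probe sets above the filter changed by -1.57 and -2.63 at P3 and by -3.00 and -2.05 at P6.

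Plxnd1, the receptor of Sema3e, had log2 values of 7.24 and 7.30 for E18, 6.30 and 6.41 for P3 and 7.40 and 9.07 for P6. P3 was lowest, and the P6 arrays lay far apart. The difference from E18 was not called at P3 (-0.91 ± 0.47, limma adjusted p = 0.152) or at P6 (0.97 ± 0.47, adjusted p = 0.160). As for Sema5a, the higher P6 value was on replicate 2, the array with the higher microglial and astrocyte marker means. The P6 arrays also differed in the hybridization controls (13.01 and 9.85) and in the 18S signal (13.92 and 11.33). The part of any of these differences in the Plxnd1 value was not tested.

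**Figure D4:**
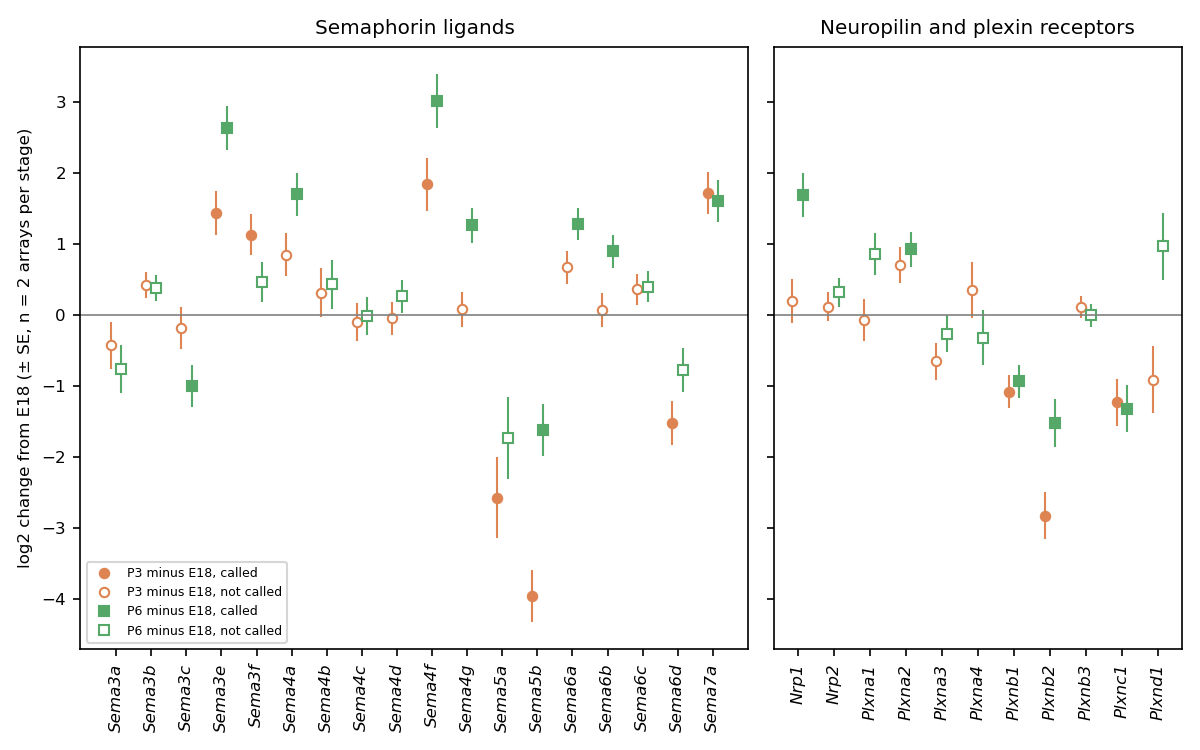
Log2 change from E18 with its standard error for each tested member at P3 and at P6, ligands and receptors apart, with filled symbols for members called by limma at an adjusted p below 0.05. At P3 the called receptors all lie below 0, and at P6 Nrp1 (1.69) and Plxna2 (0.92) lie above it.

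Of the 18 ligands, 7 were called higher and 2 lower at P6, and of the 11 receptors, 2 higher and 3 lower. The median change at P3 was 0.19 over the 18 ligands and -0.072 over the 11 receptors, beside -0.13 over all genes. At P6 it was 0.42 over the ligands and -0.0076 over the receptors, beside 0.077 over all genes. These medians are descriptions and the difference between ligands and receptors was not tested. After quantile normalization the ligand median at P3 was 0.50.

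Known ligand and receptor pairs did not all change in the same direction. Sema7a rose at both stages while its receptor Plxnc1 fell at both. Sema3e rose at both while Plxnd1 was not called at either, and Sema6a rose at P6 together with its receptor Plxna2. Nrp1 rose at P6 while its ligand Sema3a, at -0.76, was not called, and Sema3f rose at P3 while Nrp2 and Plxna3 were not called. The pairs were named from background knowledge and their joint change was not tested.

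Between P3 and P6, 0 of 29 members and 0% of all genes were called by limma, with 14 members (10 ligands and 4 receptors) at an unadjusted p under 0.05, against 19.8% of all genes. Differences included 2.33 ± 0.37 in Sema5b (adjusted p = 0.112), 1.88 ± 0.47 in Plxnd1 (0.134) and 1.49 ± 0.31 in Nrp1 (0.114), all higher at P6. The Plxnd1 value was 1.05 without P6 replicate 2 and 2.71 without P6 replicate 1. The Nrp1 value was 0.82 with all its probe sets averaged. All 6 class 4 and all 4 class 6 members but 1 of 5 class 3 members had values above 0, as did 8789 of 13645 genes. Sema3c (-0.81 ± 0.30, limma adjusted p = 0.202) and Sema3f (-0.67 ± 0.28, adjusted p = 0.251) were the members below 0 at an unadjusted p under 0.05. Arrays of P3 and P6 did not overlap for 15 members higher at P6 and 3 lower, beside 30.6% and 13.1% of all genes (43.7% together). Without P3 replicate 1, which leaves P3 to the array with the highest 18S ribosomal RNA signal (14.22), 11 of 29 members were called, 9 higher and 2 lower, beside 3922 of 13645 genes, of which 84.9% were higher.

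The change in the second interval was also set against that in the first, by testing P6 minus P3 less P3 minus E18. Of 29 members, 7 were called, 5 above 0 and 2 below, beside 22% of all genes (16.7% and 5.28%), and 10 had an unadjusted p under 0.05, beside 40% of all genes. Sema5b (6.29 ± 0.64, limma adjusted p = 0.00123) and Plxnb2 (4.14 ± 0.58, adjusted p = 0.0046) dropped to their lowest level at P3 and were higher at P6, and both calls held under every alternative. Sema6d (2.28 ± 0.54, limma adjusted p = 0.0271), Sema5a (3.41 ± 0.99, adjusted p = 0.0481) and Plxnd1 (2.79 ± 0.82, adjusted p = 0.0489) had the same sign. Sema7a (-1.84 ± 0.51, limma adjusted p = 0.0433) and Sema3f (-1.80 ± 0.49, adjusted p = 0.0403) had the opposite one, with their rise in the first interval. These 5 calls were lost without either E18 array, among other alternatives, and values ranged over the alternatives from 0.022 to 2.79 in Sema6d, 1.42 to 4.38 in Sema5a, 1.50 to 3.63 in Plxnd1, -2.53 to -1.14 in Sema7a and -2.44 to -0.085 in Sema3f.

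Other probe sets of the same genes offered a second reading. Of the members called at P3, 8 had another probe set above the filter, and 8 of these 12 probe sets moved in the same direction, the exceptions being those of Sema3f and Sema6d. For P6, 10 called members had 17 other probe sets, and 17 of 17 moved the same way. Among members not called, disagreements included that of Sema4d (above). Nrp2's other probe sets changed by -0.89 and -0.42 at P3 against 0.11 for the one used. The other probe set of Plxna4 changed by 1.02 at P6 against -0.32 for the one used.

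**Figure D5:**
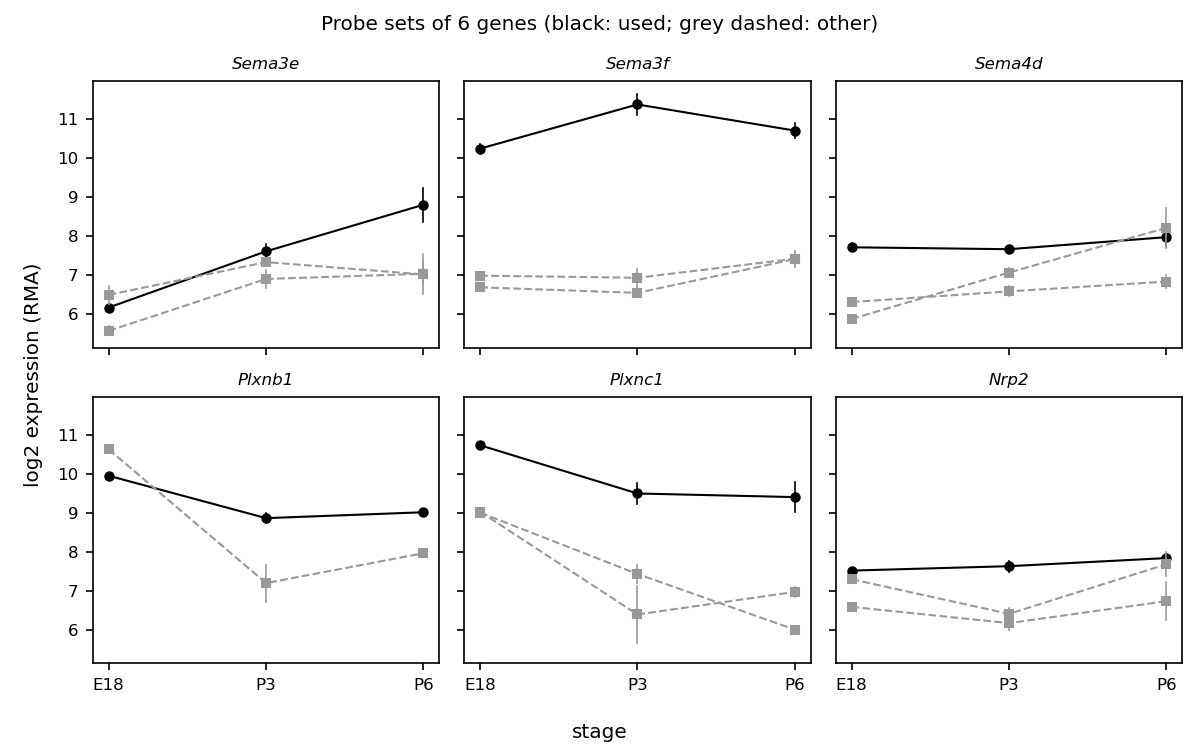
Log2 values of the probe set used (black) and of the gene's other probe sets (grey, dashed) for Sema3e, Sema3f, Sema4d, Plxnb1, Plxnc1 and Nrp2 by stage; vertical lines join the 2 arrays of a stage. The Sema3f probe set used peaks at P3 (11.09 and 11.64) while the others do not, and a second Sema4d probe set climbs from 5.87 to 8.21 while the one used stays between 7.57 and 8.19.

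Genes that act with plexins were also counted, from a list of 56 of which 50 were tested. At P3, 8 rose and 13 fell (42%, beside 41.3% of all genes), and at P6, 14 rose and 9 fell (46%, beside 31.7%). Of the 12 co-receptors, 4 rose and 3 fell at P3, and 5 rose and 4 fell at P6. Of the 16 small GTPases and their regulators, 1 rose and 5 fell at P3, and 2 rose and 3 fell at P6. Of the 5 collapsin response mediators, which relay semaphorin signals to microtubules, 2 rose and Dpysl4 fell at P3, and 4 rose and none fell at P6. Among all genes, 15.5% rose and 25.7% fell at P3, and 14.8% rose and 16.9% fell at P6. Between P3 and P6, 0 were called, with 13 at an unadjusted p under 0.05.

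Met, a receptor tyrosine kinase that couples to B plexins, measured 6.34 and 6.45 on the E18 arrays, 10.40 and 10.36 on the P3 arrays and 10.67 and 9.83 on the P6 arrays. It rose by 3.99 ± 0.31 at P3 (15.9-fold, limma adjusted p = 0.00012) and by 3.86 ± 0.31 at P6, calls that held under every alternative. Dpysl2, a collapsin response mediator, measured 11.23 and 11.25 at E18 and 12.57 to 13.36 on the later arrays. It rose by 2.02 ± 0.19 at P3 and 1.51 ± 0.19 at P6 (limma adjusted p = 0.000297 and 0.00107). With all its probe sets averaged, the rises were 2.49 and 2.09, and neither was called.

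The adhesion molecules of the L1 family that pair with neuropilins also rose. Chl1 rose by 2.02 ± 0.25 at P3 and 1.44 ± 0.25 at P6 (limma adjusted p = 0.00106 and 0.00456). L1cam rose by 1.24 ± 0.25 at P3 and 1.66 ± 0.25 at P6 (limma adjusted p = 0.00771 and 0.00218), with the P3 call lost without either E18 array (1.26 and 1.22). Among those that fell, Rras, a GTPase that plexins act on, fell at both stages (-2.48 ± 0.21 at P3 and -2.24 ± 0.21 at P6, limma adjusted p = 0.000151 and 0.000234). Rock1, a kinase that acts on the actin cytoskeleton, fell too (-1.69 ± 0.27 and -2.77 ± 0.27, adjusted p = 0.00324 and 0.000325), with the P3 call lost under the hybridization covariate. Ptprz1, a receptor phosphatase that radial glia also express, fell as well (-3.10 ± 0.36 and -4.12 ± 0.36, adjusted p = 0.000775 and 0.00019).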

How the data were processed

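The authors deposited 1 log2 value per probe set and array, computed with RMA according to the submitters' processing notes. This method subtracts background, puts arrays on a common scale and combines the probes of a set. Its version, and whether all 6 arrays went through it at once, are not given in the sources used here. Gene names came from the platform's annotation table: 34945 of 45101 probe sets had 1 gene symbol and were used, 932 had several, 9160 none and 64 were controls.

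Each gene was read from its probe set with the highest mean, and the dimmest 25% were set aside, leaving 13645 with means of at least 5.97. A mean per stage was estimated by limma 3.58.1 (R 4.3.3) from all 6 arrays, with an intensity trend, 3 residual degrees of freedom, 2-sided tests and Benjamini-Hochberg adjustment over all genes. Tests were tried on simulated data. Levels of different probe sets were not compared. Arrays have no read depth, and the number of arrays limits the precision.

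The members and gene lists were chosen with earlier results of these data known. Every member was accounted for, with full statistics for those called; of the list of plexin partners, the 3 smallest p-values per direction against E18 were named. The genes with upstream sequence shown were chosen after their values were seen. Alternatives were quantile normalization, other filters, the mean of all probe sets, other variance models, array weights, the stages compared alone, E18 averaged, covariates (replicate number, hybridization controls, 18S), and each array left out.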

Additional observations from a re-analysis of the deposited data

How the results depend on the processing

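At E18 the 2 arrays were so alike that averaging them into 1 sample tests how far the calls rest on their small spread. Then 6 members were called at P3 and 6 at P6 (10 and 14 otherwise), beside 2452 and 2366 of 13645 genes. For the difference of the intervals 2 were called (7 otherwise), beside 1258 of 13645 genes. The plexin partners called were 9 and 11 (21 and 23 otherwise). With the hybridization controls, whose level went partly with stage, as a covariate, 5 members were called at P3, beside 2263 of 13645 genes. For the difference of the intervals 2 were called, beside 983. The partners called were 8 at P3 and 12 at P6, beside 2263 and 2485 of 13645 genes. The receptor median at P6 was 0.37. Array weights left 3 calls for the difference of the intervals, beside 1805 of 13645 genes, and the 18S covariate 4, beside 2708. The ligand median was 0.50 at P3 after quantile normalization and 0.58 at P6 with all probe sets averaged.

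Leaving out each array in turn gave 6 to 12 called members at P3, 5 to 14 at P6, 0 to 11 between P3 and P6, and 2 to 10 for the difference of the intervals. Over all 13645 genes it gave 2397 to 7871, 2338 to 6161, 0 to 3922 and 1253 to 6429. For the plexin partners it gave 9 to 27 at P3, 11 to 28 at P6 and 0 to 15 between P3 and P6, and for the ligand median between P3 and P6 it gave 0.098 to 0.52. A stage left with 1 array is assumed to vary like the others. With all probe sets averaged, the change from P3 to P6 turned to 0.23 in Sema3f and -0.090 in Sema6d; neither was called, and the averaging brings in the other probe sets described above.

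The replicate numbers share only a label: deviations of arrays with the same number correlated at -0.20 (E18 and P3), 0.037 (E18 and P6) and -0.14 (P3 and P6). With the replicate number as a block, 10 members were called at P3, 14 at P6, 0 between P3 and P6 and 6 for the difference of the intervals. Beside them, 5201, 4054, 0 and 2723 of 13645 genes were called. At P6, Sema3c was lost and Sema5a was gained. Over the called changes of single genes the text names and all alternatives, 633 values kept their call and 123 lost it, with 0 reversed. The filters, the other variance models, array weights, the stages compared alone, E18 averaged and the replicate block leave the change itself as it was. They could therefore not reverse a sign, and a gene counts once for each comparison and alternative. The cause of each lost call was not tested. The array controls for the 3′ end of Actb exceeded those for its 5′ end by 0.56 and 0.58 log2 units at E18 and by 0.82 to 1.76 later. For Gapdh the excess was 1.48 and 1.44 at E18 and 1.68 to 2.55 later. The part of this difference in the comparisons with E18 was not tested. The limits that remain include it, 2 arrays a stage, signals near background for Sema5b at P3, and the cell content of the E18 samples.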
